A study of Mus musculus with 9 samples.

Results

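The genes described here are 10 members of the transforming growth factor beta (TGF-β) system, chosen by name: the ligands Tgfb1, Tgfb2 and Tgfb3, the latency proteins Ltbp1, Ltbp2 and Ltbp3, the activin subunit gene Inhba, the pathway inhibitor Smad7, and the target or partner genes Tgfbi and Tgfb1i1. The rule names genes and sets no threshold on a measured value, but the names were picked with earlier results of these data known. All 10 were among the 15659 genes tested of 55401 in the annotation. They were measured by messenger RNA sequencing in NP53, a mouse tumour cell line of diffuse midline glioma, a childhood tumour group of the brainstem and midline that includes DIPG. G1C7 and G2C9 are derivatives of NP53 with a TIM-3 knockout genotype, and Gcontrol is NP53 without that knockout; each of the 3 groups had 3 libraries, and all were grown in DMEM with fetal bovine serum. The labels do not say whether G1C7 or G2C9 is 1 clone, and they do not name separate cultures for the 3 libraries of a group, so the spread behind each p-value may be technical. TIM-3 is the product of Havcr2, an inhibitory receptor best known on T cells, and the series asks what its loss does to tumour formation by this line.

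TGF-β is secreted bound to its own propeptide, which keeps it latent, and this latent complex is linked to an LTBP protein that anchors it in the extracellular matrix. Integrins and proteases release the ligand, which binds type II and type I receptor kinases; these phosphorylate SMAD2 and SMAD3, which join SMAD4 and change transcription. Smad7 is switched on by the pathway and shuts it off at the receptor. In gliomas the pathway is best known for invasion and for dampening immune cells.

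The 9 libraries held between 50110129 and 56035382 reads in genes. Havcr2 itself was low in every library, with 55, 6 and 66 reads in G1C7, 39, 30 and 28 reads in G2C9, and 74, 58 and 60 reads in Gcontrol. Its differences from Gcontrol were not called (edgeR adjusted p = 0.586 for a log2 fold change of -0.58 in G1C7, and 0.448 for -0.85 in G2C9), and counts over the whole gene do not show a small edit. Of 8 markers of glioma and oligodendrocyte precursor cells, Olig1 and Olig2 were at 0 in all 9 libraries and Sox10 did not exceed 0.0396 CPM (read counts scaled to a common library size with TMM factors), whereas Pdgfra, Nes, Vim and Sox2 were expressed. Cspg4, which codes for the NG2 proteoglycan, averaged 1.30 ± 0.341 CPM in G1C7, 4.27 ± 1.04 CPM in G2C9 and 43.6 ± 4.72 CPM in Gcontrol (SD, n = 3 each), and fell in both derivatives (log2 fold change -5.06, edgeR adjusted p = 3.45e-05, and -3.35, edgeR adjusted p = 0.000157). Of the 8, 5 were tested. In G1C7 against Gcontrol 4 were called (Pdgfra, Nes and Vim higher, Cspg4 lower), set against 17.5% of all genes tested. In G2C9 against Gcontrol 2 were called (Pdgfra higher, Cspg4 lower), set against 13.5%. The sum of the 8, most of it Vim, was between 2787 and 2843 CPM in G1C7, 2504 and 2606 CPM in G2C9, and 2261 and 2322 CPM in Gcontrol. On the second principal component of log2 CPM, which held 24.8% of the variance, G1C7 replicate 2 lay at -79.4 and G2C9 replicate 3 at -49.8, and the other 7 libraries between 4.13 and 30.5; these 2 are called the outlying libraries here. The summed level of 8 fibroblast and pericyte markers was highest in the same 2 libraries, ranging from 3764 to 9676 CPM in G1C7, from 4742 to 9640 CPM in G2C9 and from 6456 to 6767 CPM in Gcontrol. Col1a1, Col1a2, Col3a1, Dcn and Acta2 were each highest of their group there. Pdgfrb was lowest of its group in G1C7 replicate 2, at 324, 216 and 305 CPM in G1C7. In G2C9 it was highest in replicate 3 but nearly level, at 328, 316 and 335 CPM. Of these 8 genes 7 were tested and 0 were called in any comparison (edgeR). Over all genes tested 17.5% were called in G1C7 against Gcontrol, 13.5% in G2C9 against Gcontrol and 3.36% in G1C7 against G2C9. Lum and Tagln were below 1 CPM in every library. Markers of microglia and macrophages summed to between 15.7 and 50.7 CPM in G1C7, 31.1 and 95.6 CPM in G2C9, and 33.9 and 35.2 CPM in Gcontrol, with Adgre1 at 0 and Ptprc and Aif1 below 0.1 CPM in every library. Nearly all of this sum was Tmem119, at 14.5 to 47.2 CPM in G1C7, 28.7 to 92.1 CPM in G2C9 and 29.9 to 32.2 CPM in Gcontrol, which was not called. Of the 7 genes of this list 3 were tested. Csf1r averaged 0.410 ± 0.115 CPM in G1C7 and 1.12 ± 0.273 CPM in Gcontrol. It was the 1 called gene of the 3 tested, set against 17.5% of all genes, and was lower in G1C7 (log2 fold change -1.45, edgeR adjusted p = 0.0138). The part of these markers in the results was not tested. The values of each member are also given without both libraries, an alternative chosen after the data were seen.

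In G1C7 against Gcontrol, 5 of the 10 members were called, which here means an edgeR adjusted p under 0.05 over all genes tested; of all genes tested 17.5% were called, 8.77% higher and 8.73% lower. Ltbp1 and Tgfb1i1 rose, and Ltbp2, Inhba and Smad7 fell. In G2C9 against Gcontrol 4 of 10 members were called, set against 13.5% of all genes (6.25% higher, 7.22% lower): Ltbp1 rose, and Inhba, Smad7 and Tgfb1i1 fell. Between the derivatives, G1C7 against G2C9, 3 of 10 members were called, set against 3.36% of all genes (1.71% higher, 1.65% lower): Ltbp1 and Tgfb1i1 were higher and Ltbp2 was lower in G1C7. The ligands Tgfb1, Tgfb2 and Tgfb3 were not called in any of the 3 comparisons. The comparisons with Gcontrol share the same 3 control libraries, so their calls are not independent of each other. The libraries of G1C7 and Gcontrol did not overlap for 6 of 10 members, set against 43.0% of all genes tested; for G2C9 and Gcontrol this held for 6 of 10, set against 43.3%, and for G1C7 and G2C9 for 3 of 10, set against 18.2%. The median log2 fold change of the 10 members was -0.0038 in G1C7 and -0.30 in G2C9 against Gcontrol, and 0.04 in G1C7 against G2C9, beside medians of 0.02, 0.01 and 0.01 over all genes tested. In bulk RNA, fewer cells that express a gene and less RNA of it per cell cannot be told apart.

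**Figure D1:**
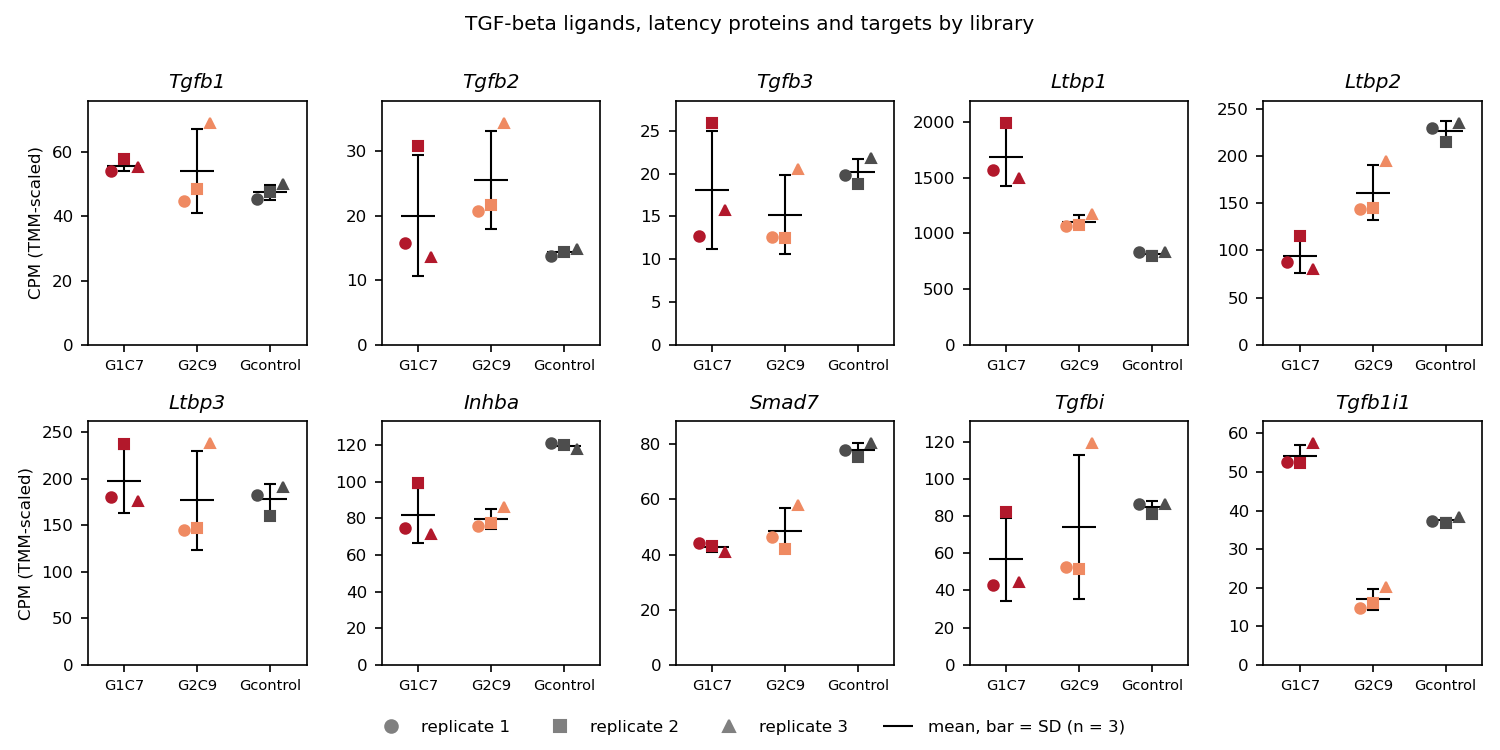
Level of each of the 10 members in CPM (vertical axis, from 0) in the 3 libraries of G1C7, G2C9 and Gcontrol; points are libraries, and bars are the mean and SD. Ltbp1 is ordered G1C7, G2C9, Gcontrol from high to low and Ltbp2 the other way, while the G2C9 libraries of Tgfb1i1, between 14.8 and 20.1 CPM, lie below those of both other groups.

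The latency proteins are large matrix proteins of one family, of which Ltbp1 rose in both derivatives and Ltbp2 fell in G1C7; LTBP1 and LTBP3 bind the latent TGF-β complex, and LTBP2 is an exception that does not bind it and associates with elastic fibres. In the mouse genome build GRCm38, Ltbp1 (ENSMUSG00000001870.16) lies on the plus strand at chr17:75005568-75392512, Ltbp2 (ENSMUSG00000002020.15) on the minus strand at chr12:84783212-84876532, and Ltbp3 (ENSMUSG00000024940.11) on the plus strand at chr19:5740904-5758532. The sequence before RefSeq starts of Ltbp1 and Ltbp2 is given here with that of Inhba because these 3 are the called members with an entry in the RefSeq promoter table (GRCm38.p6), which held 7 of the 10. Each run is the 250 bases before a RefSeq start, 5′ to 3′ on the gene's strand, except that the run for Ltbp2 stops after 209 bases, at the edge of the deposited gene model. Capitals mark the SMAD-binding element CAGAC, the AP-1 element TGANTCA, the SMAD palindrome GTCTAGAC or the cAMP response element TGACGTCA, read on both strands.
Ltbp1, first start (chr17:75005279-75005528, plus strand): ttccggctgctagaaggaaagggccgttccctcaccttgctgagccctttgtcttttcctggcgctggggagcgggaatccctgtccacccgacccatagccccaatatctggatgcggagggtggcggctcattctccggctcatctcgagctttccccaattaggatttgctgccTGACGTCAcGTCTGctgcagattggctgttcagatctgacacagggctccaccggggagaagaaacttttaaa
Ltbp1, second start (chr17:75178531-75178780, plus strand): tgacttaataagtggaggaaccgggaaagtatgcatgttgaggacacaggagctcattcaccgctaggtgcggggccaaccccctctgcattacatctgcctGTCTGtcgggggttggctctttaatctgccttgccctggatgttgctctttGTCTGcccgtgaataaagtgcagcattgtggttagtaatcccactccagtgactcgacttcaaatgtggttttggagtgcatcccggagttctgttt
Ltbp2 (chr12:84876533-84876741, minus strand): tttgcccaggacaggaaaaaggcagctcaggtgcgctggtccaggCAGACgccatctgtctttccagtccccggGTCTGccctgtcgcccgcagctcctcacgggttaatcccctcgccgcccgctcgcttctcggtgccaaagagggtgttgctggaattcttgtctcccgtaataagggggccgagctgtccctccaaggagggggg
Inhba (chr13:16011601-16011850, plus strand): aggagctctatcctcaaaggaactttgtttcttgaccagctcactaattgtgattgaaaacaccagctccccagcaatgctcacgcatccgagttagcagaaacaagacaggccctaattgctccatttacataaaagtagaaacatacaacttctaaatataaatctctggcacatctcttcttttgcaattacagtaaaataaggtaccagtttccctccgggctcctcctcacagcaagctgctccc
The first Ltbp1 window held 1 cAMP response element, 73 bases before the start, and 1 CAGAC, 64 bases before it; these 2 matches do not overlap. The second Ltbp1 window, which lies inside the deposited gene model, held 2 CAGAC matches, and the Ltbp2 run of 209 bases held 2. The Inhba run held no match to these 4 motifs and 1 TATAAA, 91 bases before the start. Of 32851 RefSeq promoter windows of 250 bases, 42.2% held CAGAC at least once, 6.75% TGANTCA, 1.55% TGACGTCA, 12.4% TATAAA and 0.167% GTCTAGAC. How many windows held CAGAC more than once was not counted. A match describes these letters and not a bound site.

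Ltbp1 had the highest level per exon length of the 10 members in every group. It measured 1569, 1990 and 1500 CPM in G1C7, 1064, 1076 and 1172 CPM in G2C9, and 830, 795 and 830 CPM in Gcontrol. The 3 groups did not overlap: every G1C7 library was above every G2C9 library, and every G2C9 library above every Gcontrol library. Ltbp1 rose 2.06-fold in G1C7 over Gcontrol (log2 fold change 1.04 ± 0.12 SE, edgeR adjusted p = 0.000965). In G2C9 it rose 1.35-fold over Gcontrol (0.43 ± 0.12, edgeR adjusted p = 0.0438). The difference between the derivatives was itself called, at 1.53-fold higher in G1C7 than in G2C9 (0.61 ± 0.12, edgeR adjusted p = 0.0272). The rise in G1C7 was called without each of the 9 libraries in turn, with log2 fold changes between 0.91 and 1.12. The call in G2C9 was lost in 7 of those 9 fits, those without G1C7 replicate 1 or any of the G2C9 and Gcontrol libraries, with adjusted p up to 0.142 without Gcontrol replicate 2. It was also lost with no filter on low counts (adjusted p = 0.0797) and with replicate number as a block (edgeR adjusted p = 0.111). The log2 fold change in G2C9 was between 0.39 and 0.46 in the 9 fits. The call between the derivatives was lost in 6 of 9, without G1C7 replicate 1, G2C9 replicate 1 or 2, or any Gcontrol library. The adjusted p was up to 0.119, without G2C9 replicate 2. This call was also lost in the fit on these 2 groups alone (adjusted p = 0.164) and with replicate number as a block (edgeR adjusted p = 0.116). Without both outlying libraries, the log2 fold changes were 0.91 in G1C7 and 0.39 in G2C9 against Gcontrol and 0.52 between the derivatives, all called.

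Ltbp2 ran the other way. It measured 87.9, 115 and 80.3 CPM in G1C7, 144, 145 and 195 CPM in G2C9, and 230, 215 and 235 CPM in Gcontrol. Again the 3 groups did not overlap, with G1C7 lowest, G2C9 between and Gcontrol highest. Ltbp2 fell in G1C7 to 0.417 of its Gcontrol level (log2 fold change -1.26 ± 0.16 SE, edgeR adjusted p = 0.00173), a call kept without each of the 9 libraries in turn. In G2C9 its log2 fold change was -0.49 ± 0.16 (edgeR adjusted p = 0.0831), which was not called with all 9 libraries, and was called without G1C7 replicate 2, without G2C9 replicate 3, with DESeq2 (adjusted p = 0.0329) and in a fit on these 2 groups alone (adjusted p = 0.0384). G1C7 was lower than G2C9 by a log2 fold change of -0.77 ± 0.16 (edgeR adjusted p = 0.0406). This call was kept without G1C7 replicate 2 and lost without each of the other 8 libraries, with adjusted p up to 0.130 without G1C7 replicate 1. It was also lost in the fit on the derivatives alone (adjusted p = 0.185) and with replicate number as a block (edgeR adjusted p = 0.14). Without both outlying libraries, Ltbp2 was called in all 3 comparisons, at -1.43 in G1C7 and -0.65 in G2C9 against Gcontrol and -0.78 between the derivatives. The annotation places D030025P21Rik on the opposite strand over 9.335% of the exon bases of Ltbp2. Reads in shared bases were dropped and strand was not used, so reads of these 2 genes cannot be fully separated; D030025P21Rik did not exceed 4.47 CPM in any library.

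Ltbp3 overlapped between all groups. It measured 180, 237 and 176 CPM in G1C7, 145, 147 and 238 CPM in G2C9, and 183, 160 and 191 CPM in Gcontrol. The highest library of each derivative was the outlying one, G1C7 replicate 2 and G2C9 replicate 3. The log2 fold change was 0.15 ± 0.21 in G1C7 (edgeR adjusted p = 0.670) and -0.012 ± 0.21 in G2C9 (edgeR adjusted p = 0.980). Once both outlying libraries were left out, it was 0.00086 in G1C7 (adjusted p = 0.992), -0.29 in G2C9 (adjusted p = 0.000544) and 0.29 in G1C7 against G2C9 (adjusted p = 0.00243).

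Of 65 tested genes within 5 Mb of Ltbp1, 36.9% were called in G1C7 against Gcontrol, with a median log2 fold change of 0.50, against 17.5% and 0.02 over all genes tested. In G2C9 against Gcontrol 15.4% of them were called, set against 13.5% of all genes, and in G1C7 against G2C9 12.3%, set against 3.36%. Their median was 0.17 in G2C9 against Gcontrol and 0.27 in G1C7 against G2C9, so that Ltbp1 lay above its neighbours' median by 0.55, 0.26 and 0.34 in the 3 comparisons. The 95 neighbours of Ltbp2 had medians of -0.24 in G1C7 and -0.22 in G2C9, and Ltbp2 lay 1.02 below theirs in G1C7 on the log2 scale and 0.28 below theirs in G2C9. Whether the neighbourhood of Ltbp1 and its own level share a cause was not tested.

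**Figure D2:**
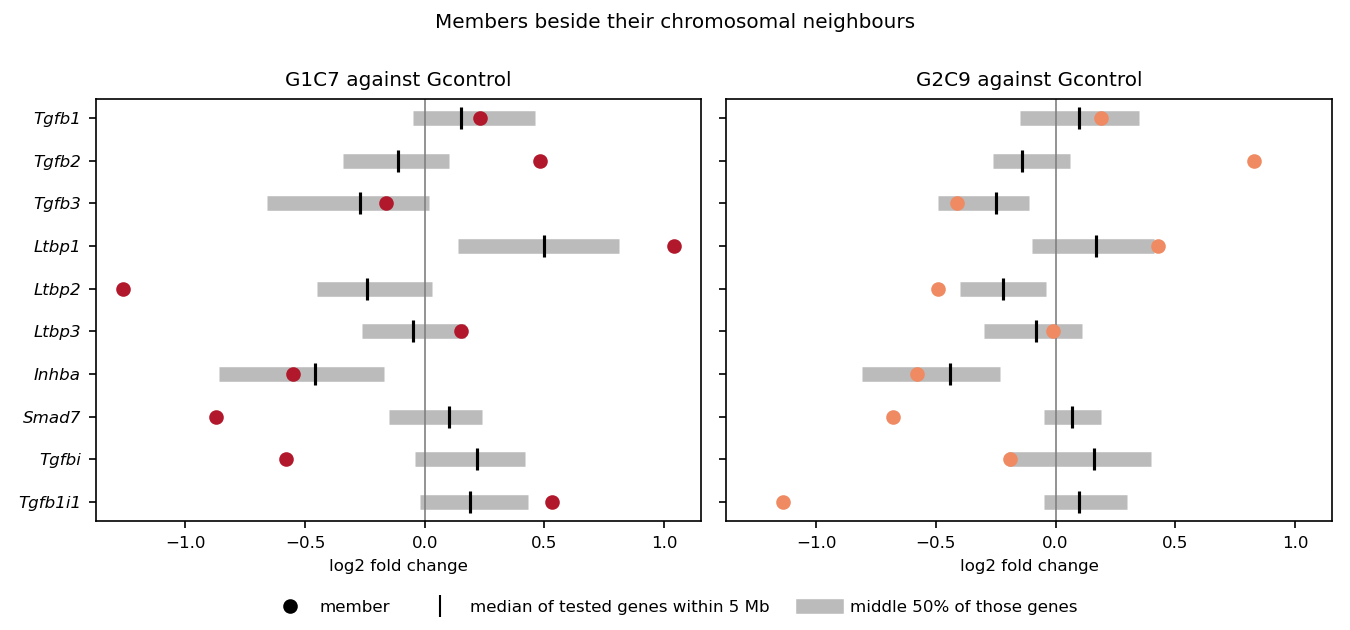
Log2 fold change of each member (marker) beside the median (line) and middle 50% (grey bar) of the tested genes within 5 Mb on the same chromosome, for G1C7 against Gcontrol and G2C9 against Gcontrol. The neighbours of Ltbp1 and Inhba have medians of 0.50 and -0.46 in G1C7, and Smad7 lies below the middle 50% of its neighbours in both comparisons.

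The ligand genes code for the TGF-β1, TGF-β2 and TGF-β3 precursors. Tgfb1 (ENSMUSG00000002603.15, chr7:25687002-25705077, plus strand) measured 54.3, 57.8 and 55.4 CPM in G1C7, 44.9, 48.6 and 69.1 CPM in G2C9, and 45.3, 47.5 and 50.0 CPM in Gcontrol. The G1C7 libraries were all above the Gcontrol libraries, while those of G2C9 lay on both sides of them. Its log2 fold change was 0.23 ± 0.15 in G1C7 (edgeR adjusted p = 0.338) and 0.19 ± 0.15 in G2C9 (edgeR adjusted p = 0.484). Leaving out both outlying libraries gave 0.21 in G1C7 (adjusted p = 0.00397), -0.025 with an adjusted p of 0.738 in G2C9, and 0.23 in G1C7 against G2C9 (adjusted p = 0.00788).

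Tgfb2 (ENSMUSG00000039239.14, chr1:186622792-186705989, minus strand) measured 15.7, 30.7 and 13.6 CPM in G1C7, 20.7, 21.6 and 34.3 CPM in G2C9, and 13.8, 14.3 and 14.8 CPM in Gcontrol. All G2C9 libraries were above all Gcontrol libraries, and G1C7 overlapped both groups, its replicate 2 lying between G2C9 replicates 2 and 3. The log2 fold change was 0.48 ± 0.31 in G1C7 (edgeR adjusted p = 0.330) and 0.83 ± 0.31 in G2C9 (edgeR adjusted p = 0.121), neither called. The fit on G2C9 and Gcontrol alone gave 0.84 with an adjusted p of 0.0258. Without both outlying libraries it was 0.037 in G1C7 (adjusted p = 0.723), 0.56 in G2C9 (adjusted p = 7.03e-06) and -0.53 in G1C7 against G2C9 (adjusted p = 0.000114).

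Tgfb3 (ENSMUSG00000021253.7, chr12:86056745-86079041, minus strand) measured 12.7, 25.9 and 15.7 CPM in G1C7, 12.6, 12.5 and 20.5 CPM in G2C9, and 19.8, 18.8 and 21.8 CPM in Gcontrol. In each derivative the outlying library lay within or above the Gcontrol range and the other 2 lay below it. The log2 fold change was -0.16 ± 0.28 in G1C7 (edgeR adjusted p = 0.748) and -0.41 ± 0.28 in G2C9 (edgeR adjusted p = 0.404). With both outlying libraries left out it was -0.50 in G1C7 (adjusted p = 0.000131) and -0.68 (adjusted p = 6.93e-06) in G2C9. Of its exon bases, 12.42% are shared with Gm37804 and Gm48008 on the other strand, neither of which exceeded 0.0706 CPM in any library.

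Inhba (ENSMUSG00000041324.14, chr13:16011851-16031621, plus strand) codes for the βA subunit of activin A and inhibin A; activin A signals through the same SMAD2 and SMAD3. It measured 74.9, 99.1 and 71.4 CPM in G1C7, 76.1, 77.3 and 86.1 CPM in G2C9, and 121, 120 and 118 CPM in Gcontrol. All 6 derivative libraries were below all 3 Gcontrol libraries, and the derivatives overlapped each other. Inhba fell to 0.685 of its Gcontrol level in G1C7 (log2 fold change -0.55 ± 0.13 SE, edgeR adjusted p = 0.0198) and to 0.669 in G2C9 (-0.58 ± 0.13, edgeR adjusted p = 0.0180). Each of these calls was lost in 5 of the 9 fits without 1 library. In G1C7 these were the fits without G1C7 replicate 1 or 3 or any Gcontrol library (adjusted p up to 0.0721, without Gcontrol replicate 1), and in G2C9 those without G2C9 replicate 1 or 2 or any Gcontrol library (adjusted p up to 0.0709). The 40 tested genes within 5 Mb of Inhba had median log2 fold changes of -0.46 in G1C7 and -0.44 in G2C9, and 35.0% and 37.5% of them were called, set against 17.5% and 13.5% of all genes tested. Inhba lay inside the range of the middle 50% of these neighbours in both comparisons. With replicate number as a block, both calls of Inhba were lost (edgeR adjusted p = 0.0519 in G1C7 and 0.0541 in G2C9). Its log2 fold changes without both outlying libraries were -0.70 and -0.64, both called.

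Smad7 (ENSMUSG00000025880.11, chr18:75367529-75395935, plus strand) is the inhibitory SMAD of the TGF-β receptors. It measured 44.2, 43.1 and 40.9 CPM in G1C7, 46.2, 42.0 and 57.8 CPM in G2C9, and 77.9, 75.4 and 80.3 CPM in Gcontrol. Every derivative library was below every Gcontrol library, with G2C9 replicate 3 nearest to them. Smad7 fell to 0.549 of its Gcontrol level in G1C7 (log2 fold change -0.87 ± 0.12 SE, edgeR adjusted p = 0.00202) and to 0.625 in G2C9 (-0.68 ± 0.12, edgeR adjusted p = 0.00717). Both calls were kept without each of the 9 libraries in turn and in the 7 other alternative fits. G1C7 and G2C9 were not called different from each other (-0.19 ± 0.12, edgeR adjusted p = 0.546). The 46 tested neighbours of Smad7 had medians of 0.10 in G1C7 and 0.07 in G2C9, on the other side of 0 from Smad7 itself. The log2 fold change without both outlying libraries was -0.87 in G1C7 and -0.82 in G2C9.

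Tgfb1i1 (ENSMUSG00000030782.17, chr7:128246812-128255699, plus strand) codes for HIC-5, a focal adhesion protein induced by TGF-β1 that also acts as a nuclear receptor coactivator. It measured 52.6, 52.2 and 57.4 CPM in G1C7, 14.8, 16.1 and 20.1 CPM in G2C9, and 37.3, 36.9 and 38.2 CPM in Gcontrol. The groups did not overlap, with G1C7 highest, Gcontrol between and G2C9 lowest. Tgfb1i1 rose 1.44-fold in G1C7 (log2 fold change 0.53 ± 0.12 SE, edgeR adjusted p = 0.0160) and fell to 0.455 of the Gcontrol level in G2C9 (-1.14 ± 0.12, edgeR adjusted p = 0.000745). It was 3.18-fold higher in G1C7 than in G2C9 (1.67 ± 0.12, edgeR adjusted p = 0.000307), and was the only member called in opposite directions in the derivatives. The fall in G2C9 and the difference between the derivatives were called without each of the 9 libraries in turn. The rise in G1C7 was lost without G1C7 replicate 3 or any Gcontrol library (adjusted p up to 0.0724, without Gcontrol replicate 2). The 132 tested neighbours had medians of 0.19 in G1C7 and 0.10 in G2C9. Leaving out both outlying libraries, the log2 fold changes were 0.56, -1.27 and 1.83 in the same order of comparisons.

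Tgfbi (ENSMUSG00000035493.10, chr13:56609523-56639562, plus strand) codes for a secreted matrix protein that TGF-β induces. It measured 43.0, 82.3 and 44.7 CPM in G1C7, 52.6, 51.4 and 119 CPM in G2C9, and 86.7, 81.2 and 86.5 CPM in Gcontrol. In each derivative 2 libraries lay well below Gcontrol, while the outlying library reached or passed it. With all libraries Tgfbi was not called, at a log2 fold change of -0.58 ± 0.36 in G1C7 (edgeR adjusted p = 0.306) and -0.19 ± 0.36 in G2C9 (edgeR adjusted p = 0.789). In the absence of both it was -0.95 in G1C7 (adjusted p = 4.25e-11), -0.70 in G2C9 (adjusted p = 2.29e-09) and -0.24 in G1C7 against G2C9 (adjusted p = 0.00257).

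**Figure D3:**
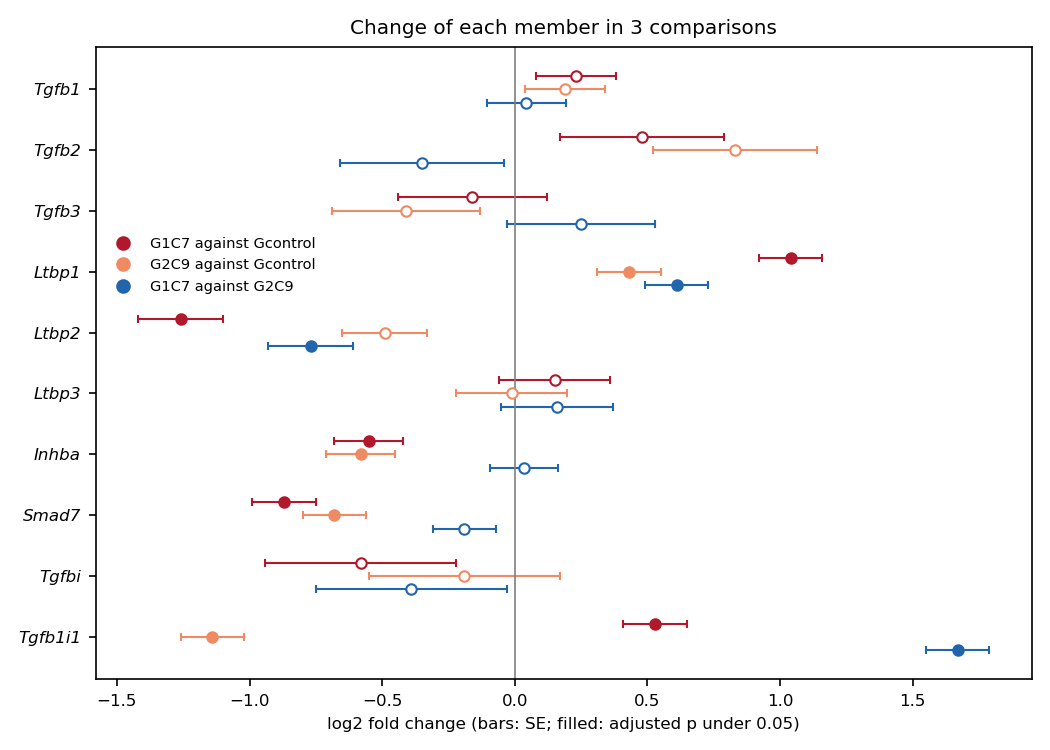
Log2 fold change (horizontal axis) of the 10 members in G1C7 against Gcontrol, G2C9 against Gcontrol and G1C7 against G2C9 from the edgeR fit; bars are SE, filled points have an adjusted p under 0.05 and open points do not. Smad7 and Inhba lie left of 0 in both derivatives, and Tgfb1i1 lies at 0.53 in G1C7 and at -1.14 in G2C9.

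G1C7 replicate 2 had the highest level of its group in 8 of the 10 members and G2C9 replicate 3 in 10 of 10, against 46.1% and 45.1% of all genes tested. The excess over the mean of the other 2 libraries of the group was greatest for Tgfb2 in G1C7, at a ratio of 2.10, and for Tgfbi in G2C9, at 2.29. Smad7 and Tgfb1i1 in G1C7 had ratios of 1.01 and 0.948, and Ltbp1 and Inhba in G2C9 had 1.09 and 1.12. With both libraries left out, 8 of 10 members were called in G1C7 against Gcontrol, 9 of 10 in G2C9 against Gcontrol and 7 of 10 in G1C7 against G2C9, set against 54.3%, 53.0% and 27.3% of all genes. In that fit the derivatives had 2 libraries each.

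Per length of exon, which allows genes to be compared, Ltbp1 stood far above the other members in all groups, at 158 ± 24.8 RPKM (CPM per kilobase of exon, SD, n = 3) in G1C7, 103 ± 5.51 RPKM in G2C9 and 76.5 ± 1.90 RPKM in Gcontrol. The order below it differed between groups. In Gcontrol it ran Ltbp2 (27.7 RPKM), Tgfbi (22.5), Ltbp3 (19.6), Inhba (18.7), Smad7 (17.2), Tgfb1 (9.44), Tgfb1i1 (6.70), Tgfb3 (5.95) and Tgfb2 (2.47), and among neighbours in this order only the libraries of Ltbp3 and Inhba overlapped. The exon length includes bases shared with other genes, whose reads were dropped (12.42% of Tgfb3, 9.335% of Ltbp2). Levels of these genes may therefore be too low, and close ranks such as Tgfb1i1 and Tgfb3 are not settled. In G1C7, Ltbp2 had rank 5 at 11.5 ± 2.26 RPKM. There Ltbp3 overlapped Tgfbi, Tgfbi overlapped Inhba, Inhba overlapped Ltbp2, and Ltbp2 overlapped Tgfb1. In G2C9 the lowest level was that of Tgfb1i1, at 3.05 ± 0.494 RPKM, which overlapped Tgfb2 at 4.40 ± 1.31 RPKM. Among the 3 ligands Tgfb1 had the highest level per length in every group, at 11.1 RPKM in G1C7, 10.7 RPKM in G2C9 and 9.44 RPKM in Gcontrol.

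The rest of the pathway was followed with 6 lists of 81 genes in all, of which 73 were tested. In G1C7 against Gcontrol 16 of these 73 were called, 6 higher and 10 lower. In G2C9 against Gcontrol 13 were called, 5 higher and 8 lower. In G1C7 against G2C9 2 were called, both higher. These counts stand beside the 17.5%, 13.5% and 3.36% of all genes given above, and the median log2 fold changes of the 73 genes were 0.019, -0.029 and 0.053.

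Of 10 receptor genes, 2 rose in each derivative against Gcontrol and 0 fell, set against 17.5% and 13.5% of all genes called in either direction. Bambi, a decoy receptor without a kinase domain, averaged 8.37 ± 0.420 CPM in G1C7, 10.8 ± 0.701 CPM in G2C9 and 6.11 ± 0.391 CPM in Gcontrol (SD, n = 3 each). It rose in G1C7 (log2 fold change 0.45, edgeR adjusted p = 0.0359) and in G2C9 (0.82, edgeR adjusted p = 0.00362). The first of these calls was kept only without G1C7 replicate 2 or G2C9 replicate 3, with adjusted p up to 0.145 without Gcontrol replicate 1. Tgfbr3, the coreceptor betaglycan, averaged 284 ± 38.4 CPM in G1C7, 337 ± 20.4 CPM in G2C9 and 226 ± 6.20 CPM in Gcontrol, and rose in G2C9 (0.58, edgeR adjusted p = 0.00907). Acvr2b, an activin type II receptor, was at 1.65, 3.62 and 1.66 CPM in G1C7, between 0.878 and 1.05 CPM in G2C9, and between 0.670 and 0.869 CPM in Gcontrol, and rose in G1C7 (1.63, edgeR adjusted p = 0.0140), a call lost without Gcontrol replicate 2 or 3. The ligand-binding kinases Tgfbr1 and Tgfbr2 were not called in any comparison.

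Of 14 SMAD and intracellular regulator genes other than Smad7, the same 2 fell in each derivative and 0 rose. The shares of all genes called in either direction were 17.5% in G1C7 and 13.5% in G2C9. Smad6, the other inhibitory SMAD, averaged 8.20 ± 0.221 CPM in G1C7, 7.33 ± 0.418 CPM in G2C9 and 15.2 ± 0.615 CPM in Gcontrol, with log2 fold changes of -0.89 (edgeR adjusted p = 0.00123) in G1C7 and -1.06 (edgeR adjusted p = 0.000714) in G2C9. Like those of Smad7, both calls were kept without each library in turn. Skil, which codes for the SMAD corepressor SnoN, averaged 71.3 ± 9.04 CPM in G1C7, 70.1 ± 12.4 CPM in G2C9 and 104 ± 1.92 CPM in Gcontrol, with log2 fold changes of -0.55 (edgeR adjusted p = 0.0272) and -0.57 (edgeR adjusted p = 0.0267). Both Skil calls were lost without any 1 Gcontrol library, and without G1C7 replicate 1 or 3 in G1C7 and G2C9 replicate 1 or 2 in G2C9 (adjusted p up to 0.0905 and 0.0997). The signal carriers Smad2, Smad3 and Smad4 were not called in any comparison.

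Of 17 genes of latency activation and matrix, 2 rose and 4 fell in G1C7 and 1 rose and 3 fell in G2C9. The shares of all genes called in either direction were 17.5% and 13.5%. Mmp9, a secreted protease, averaged 0.393 ± 0.0250 CPM in G1C7, 0.449 ± 0.187 CPM in G2C9 and 5.46 ± 0.650 CPM in Gcontrol, with log2 fold changes of -3.79 (edgeR adjusted p = 0.000213) and -3.60 (edgeR adjusted p = 0.000300). Fbn2, which codes for the microfibril protein fibrillin-2, averaged 0.991 ± 0.500 CPM in G1C7, 0.145 ± 0.0796 CPM in G2C9 and 6.05 ± 0.960 CPM in Gcontrol. It fell in both derivatives (-2.61, edgeR adjusted p = 0.00386, and -5.36, edgeR adjusted p = 0.000445), and was higher in G1C7 than in G2C9 (2.75, edgeR adjusted p = 0.0176), the last lost without G2C9 replicate 1 or 2 (adjusted p up to 0.0789). Emilin1, whose product limits processing of the TGF-β1 precursor, measured 90.0, 135 and 85.5 CPM in G1C7, 82.8, 83.6 and 183 CPM in G2C9, and 235, 218 and 249 CPM in Gcontrol, and fell in G1C7 (-1.17, edgeR adjusted p = 0.0354). That call was lost in 5 of 9 fits, without G1C7 replicate 1 or 3 or any Gcontrol library (adjusted p up to 0.108). Itgav, the integrin αV chain, averaged 328 ± 22.6 CPM in G1C7, 356 ± 12.8 CPM in G2C9 and 266 ± 7.47 CPM in Gcontrol. It rose in G1C7 (0.30, edgeR adjusted p = 0.0365) and in G2C9 (0.42, edgeR adjusted p = 0.0112). The second rise was lost without G2C9 replicate 1 or Gcontrol replicate 1 or 3 (adjusted p up to 0.0637), and the first without those 3 libraries, G1C7 replicate 1, G2C9 replicate 2 or Gcontrol replicate 2 (up to 0.148). Itgb6, a β chain that pairs with it, which was chosen after its values were seen because it lies below 1 CPM, did not exceed 0.314 CPM in any library and fell in G1C7 (edgeR adjusted p = 0.00821) as well as in G2C9 (edgeR adjusted p = 0.0351, lost in 7 of 9 fits, all but those without G1C7 replicate 2 or 3). Ltbp4, the fourth LTBP, averaged 112 ± 15.3 CPM in G1C7, 72.8 ± 9.47 CPM in G2C9 and 70.3 ± 3.73 CPM in Gcontrol. It rose in G1C7 against Gcontrol (0.67, edgeR adjusted p = 0.00824), kept without each library in turn, and was higher in G1C7 than in G2C9 (0.63, edgeR adjusted p = 0.0334); this second call was kept only without G1C7 replicate 2 or G2C9 replicate 3 (adjusted p up to 0.141).

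Of 8 secreted antagonists 6 were tested and 0 were called in any comparison by edgeR. The shares of all genes called were 17.5%, 13.5% and 3.36% in the 3 comparisons. Without both outlying libraries 5, 5 and 2 of the 6 were called, set against 54.3%, 53.0% and 27.3% of all genes. The most abundant, Bgn, averaged 1580 ± 448 CPM in G1C7, 1598 ± 355 CPM in G2C9 and 1715 ± 33.3 CPM in Gcontrol. Of 7 other genes of the activin branch 1 was tested, Gdf11, a ligand that signals through SMAD2 and SMAD3. Gdf11 averaged 59.8 ± 4.31 CPM in G1C7, 60.8 ± 7.27 CPM in G2C9 and 34.8 ± 1.43 CPM in Gcontrol. It rose in G1C7 (0.78, edgeR adjusted p = 0.00194) and in G2C9 (0.80, edgeR adjusted p = 0.00205), kept without each library in turn, so that it moved opposite to Inhba.

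Of 25 other target genes, 1 rose and 4 fell in G1C7, 1 rose and 3 fell in G2C9, and 0 were called between the derivatives by edgeR. The shares of all genes called in these 3 comparisons were 17.5%, 13.5% and 3.36%. Adam12, a metalloprotease, averaged 5.73 ± 0.979 CPM in G1C7, 6.25 ± 0.810 CPM in G2C9 and 27.8 ± 3.22 CPM in Gcontrol, with log2 fold changes of -2.28 (edgeR adjusted p = 0.000163) and -2.16 (edgeR adjusted p = 0.000240), kept without each library in turn. Klf10, an early response transcription factor of TGF-β, averaged 46.3 ± 18.8 CPM in G1C7, 36.7 ± 4.07 CPM in G2C9 and 85.6 ± 3.52 CPM in Gcontrol, with log2 fold changes of -0.89 (edgeR adjusted p = 0.0365) and -1.22 (edgeR adjusted p = 0.0125). The call in G1C7 was kept only without G1C7 replicate 2 or G2C9 replicate 3 (adjusted p up to 0.109), and that in G2C9 was lost only without Gcontrol replicate 2. Timp1, an inhibitor of metalloproteases, and Snai1, a transcription factor of epithelial-mesenchymal transition, were named after their values were seen, as the remaining called targets. Timp1 averaged 183 ± 15.0 CPM in G1C7, 198 ± 33.1 CPM in G2C9 and 295 ± 4.79 CPM in Gcontrol, with log2 fold changes of -0.68 (edgeR adjusted p = 0.00672) and -0.57 (edgeR adjusted p = 0.0169); the first was kept without each library in turn, and the second was lost without G2C9 replicate 1 or 2 or any Gcontrol library (adjusted p up to 0.0729). Snai1 averaged 52.9 ± 9.30 CPM in G1C7, 55.4 ± 8.20 CPM in G2C9 and 76.8 ± 2.85 CPM in Gcontrol. It fell in G1C7 (-0.54, edgeR adjusted p = 0.0350), a call lost without G1C7 replicate 1 or 3, G2C9 replicate 1 or any Gcontrol library (adjusted p up to 0.111). In G2C9 its log2 fold change was -0.47 and was not called (edgeR adjusted p = 0.0644). Spp1, which codes for the secreted protein osteopontin, averaged 2497 ± 154 CPM in G1C7, 2636 ± 1122 CPM in G2C9 and 1391 ± 63.1 CPM in Gcontrol, with log2 fold changes of 0.84 (edgeR adjusted p = 0.0476) and 0.92 (edgeR adjusted p = 0.0416). The call in G1C7 was lost without G2C9 replicate 2 or any G1C7 or Gcontrol library, and that in G2C9 without G1C7 replicate 1 or 3 or any Gcontrol library, with adjusted p up to 0.159 and 0.146 without Gcontrol replicate 3. Without both outlying libraries, 55 of the 73 pathway genes were called in G1C7 against Gcontrol, 53 in G2C9 against Gcontrol and 32 in G1C7 against G2C9, set against 54.3%, 53.0% and 27.3% of all genes tested in that fit.

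**Figure D4:**
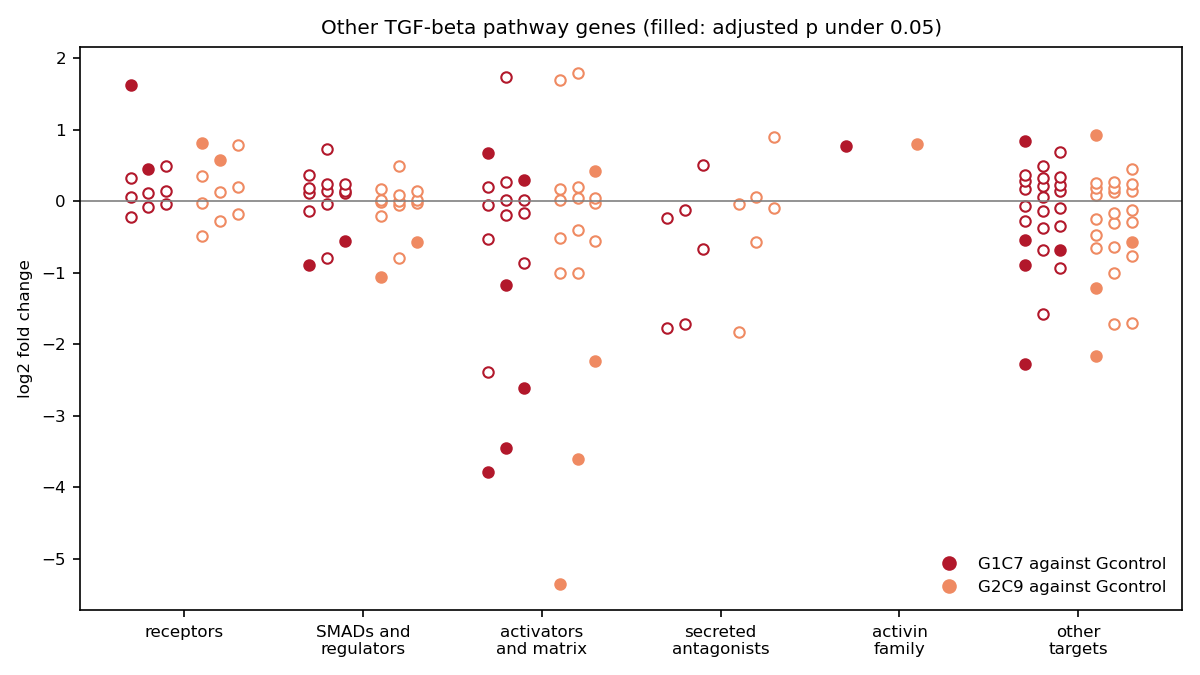
Log2 fold change of the tested genes of each pathway list (columns of points, by list) in G1C7 against Gcontrol and G2C9 against Gcontrol; filled points have an edgeR adjusted p under 0.05, open points do not. Called points of the SMAD and regulator list (2 of 14) lie below 0 and those of the receptor list (2 of 10) above it in both comparisons. Over all genes tested 17.5% and 13.5% were called, in either direction. The median log2 fold change of all 14 genes of the SMAD and regulator list was 0.13 in G1C7 and -0.0064 in G2C9. That of the 10 receptor genes was 0.13 and 0.16. Most points are open except in the activin list, whose 1 gene was called in both.

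The genes whose pattern was most like that of Tgfb1i1 and Ltbp2, the 2 members with the widest range of group means, were looked for among 10990 protein-coding genes by the root mean square difference of centred log2 CPM over the 9 libraries. For Tgfb1i1 these were Nme4, Ezr and Ptprb, at 0.212, 0.213 and 0.230, against a median of 0.75 over all candidates. For Ltbp2 they were Rbks, Vdr and Adcy3, at 0.115, 0.126 and 0.136, against a median of 0.62. Ezr averaged 44.6 CPM in G1C7, 18.9 CPM in G2C9 and 35.9 CPM in Gcontrol, and Vdr averaged 34.7 CPM in G1C7, 61.2 CPM in G2C9 and 79.8 CPM in Gcontrol. The measure ranks likeness over 9 libraries in 3 groups and carries no test.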

How the data were processed

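Poly(A) RNA was sequenced with a stranded kit as read pairs, per the labels' protocols. Per the file headers, the deposited files hold read counts per gene from featureCounts 1.6.0 with GENCODE vM25; alignment with STAR 2.6.1c to GRCm38 and quality control with FastQC 0.11.8 are named in the submitters' processing notes. No header of the 9 sets an option for read pairs, strand, multiple mapping or overlapping genes. Both mates were therefore counted, strand was not used, and reads with several positions or genes were lost; of counts from 2 to 50, 74.1% to 75.6% were even. Symbols came from GENCODE vM21 (55141 of 55401 IDs).

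CPM used TMM factors, and RPKM the gene lengths in the files. Genes kept by filterByExpr, 15659 of 55401, were fitted with edgeR 4.0.16 (quasi-likelihood, robust, R 4.3.3) over all 9 libraries with 6 residual degrees of freedom, tested on simulated data first. P-values were adjusted by Benjamini-Hochberg over all genes tested and called under 0.05; SE is the log2 fold change divided by the root of the F statistic. Alternatives were RLE scaling, no filter, DESeq2 1.42.0, limma-voom 3.58.1, a replicate block, a fit on 2 groups alone and each library left out. The fit without G1C7 replicate 2 and G2C9 replicate 3 was added after the data were seen. The members and lists were chosen with earlier results of these data known. Of each other list the text names the called genes at 1 CPM or more with the greatest change, up to 3 per comparison, or the most abundant where none was called; Tgfbr1, Tgfbr2, Smad2, Smad3, Smad4, Itgb6, Timp1 and Snai1 were named outside this rule, after their values were seen.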

Additional observations from a re-analysis of the deposited data

Results flagged for a closer look

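In 3 members the difference from Gcontrol was not the same in G1C7 and G2C9, by the edgeR test of G1C7 against G2C9, which compares these differences directly. The log2 fold change of G1C7 against G2C9 was 1.67 for Tgfb1i1, 0.61 for Ltbp1 and -0.77 for Ltbp2. Both derivatives carry the same knockout label, and the labels do not say what else sets them apart. Tgfb1i1 was at 54.1 ± 2.92 CPM in G1C7, 17.0 ± 2.76 CPM in G2C9 and 37.4 ± 0.673 CPM in Gcontrol (SD, n = 3 each), so the derivatives lay on either side of Gcontrol. The call between the derivatives was kept in 9 of 9 fits without 1 library, as was the fall in G2C9. The rise in G1C7 over Gcontrol was kept in 5 of 9. The differences in Ltbp1 and Ltbp2 were in degree, both derivatives lying on the same side of Gcontrol, and were kept in 3 and 1 of the 9 fits; both were lost without any 1 Gcontrol library, G1C7 replicate 1, or G2C9 replicate 1 or 2, and that of Ltbp2 also without G1C7 replicate 3 or G2C9 replicate 3, with adjusted p up to 0.119 for Ltbp1 and 0.130 for Ltbp2.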

How the results depend on the processing

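Of the 12 calls made for members, 6 were kept in all 16 alternative fits and 6 in all 9 fits without 1 library: Ltbp1, Ltbp2 and Smad7 in G1C7, Smad7 and Tgfb1i1 in G2C9, and Tgfb1i1 between the derivatives. The number of members called, main value 5 in G1C7 against Gcontrol, 4 in G2C9 against Gcontrol and 3 in G1C7 against G2C9, ranged from 3 to 5, from 2 to 6 and from 1 to 3 without 1 library, and was 8, 9 and 7 without both outlying libraries (G1C7 replicate 2 and G2C9 replicate 3). The fit on 2 groups alone gave 1 in G1C7 against G2C9. Same-numbered libraries of G1C7 and G2C9 correlated at 0.409, -0.511 and -0.557 in their deviations from group means. Same-numbered libraries of either derivative and Gcontrol correlated between -0.0225 and 0.0469. G1C7 replicate 2 and G2C9 replicate 3, which differ in number, correlated at 0.677. Because these 2 outlying libraries weigh on the deviations, the correlations cannot decide whether replicate numbers pair the samples. The replicate block gave 4, 2 and 1 members called and 1532, 1114 and 164 genes, against 2740, 2109 and 526 in the main fit. Over all genes, the fit without both libraries gave 8581, 8383 and 4320 calls, DESeq2 3862, 3190 and 1267, and no filter 2086, 1587 and 403; the fit on 2 groups alone gave 2483, 3212 and 80. Without 1 library these counts ranged from 1181 to 4133, from 878 to 4113 and from 186 to 1286. The cause of these shifts was not tested.

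Direction turned only in results that were not called. Without both libraries the log2 fold change of Tgfb1 in G2C9 was -0.025 and that of Inhba in G1C7 against G2C9 was -0.067. Without 1 library the ranges spanned 0 for Tgfb3 in G1C7 (-0.50 to 0.041), Tgfb1 (-0.021 to 0.30), Ltbp3 (-0.28 to 0.11) and Tgfbi (-0.70 to 0.024) in G2C9, and for Tgfb1 (-0.072 to 0.25), Tgfb3 (-0.10 to 0.52), Inhba (-0.12 to 0.12), Tgfbi (-0.76 to 0.11) and Bgn (-0.27 to 0.17) in G1C7 against G2C9. The levels of Fbn2 and Mmp9 in the derivatives, and of Havcr2 and Itgb6 in all groups, rest on few reads.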
